A study of Astyanax mexicanus with 78 samples.

Results

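The genes described here are the 80 genes whose transcripts were most consistently more abundant in Pachón cavefish than in surface fish of the Mexican tetra, Astyanax mexicanus, across brain, gut, heart, liver and muscle. They were chosen by their measured difference between the populations. Of 19076 genes counted, 4463 had a mean of at least 5 CPM (counts scaled to a common library total) in cavefish in each of the 5 tissues. For these, the mean of log2(CPM + 1) over surface fish libraries was subtracted from the mean over cavefish libraries in each tissue, and the 80 genes with the highest value of the lowest of their 5 differences were taken. The population difference of the members is therefore given as a description, without a test. The members are tested only for age, over which the choice pooled. The age tests use the same libraries as the choice, and a low level in 1 age group of surface fish raises the difference. The age and interaction calls are therefore not independent of the choice.

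The study profiled aged cavefish of the Pachón population (7 to 8 years), young cavefish (about 1 year), aged surface fish (7 to 8 years) and young surface fish (about 1 year), with bulk RNA sequencing of each tissue in 78 libraries. Aged cavefish brain and aged surface fish gut had 3 libraries each and the other groups 4. The fish were kept in an aquarium facility, and the labels give no treatment or transgene beyond population and age. Aged and young fish were different animals, so that age and the cohort in which a fish was raised cannot be told apart. The labels do not give the sex of the fish or say whether libraries with the same replicate number in different tissues came from the same fish.

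Surface and cave populations of this species are interfertile, and the cave form has lost its eyes and pigment, sleeps little and stores more fat. A difference between the populations in tissues as unlike as brain and liver does not show which cell types carry it. In bulk tissue, a lower level can come from fewer cells of a type or from less RNA per cell, which cannot be told apart here. Among the members, 10 could be given a symbol and 70 are known only by their Ensembl identifier. The named members have varied roles. cngb3.2 is a cyclic nucleotide-gated channel subunit of the kind used by cone photoreceptors, dbpb is a clock-controlled transcription factor of the PAR bZIP family, and NME2 is a nucleotide kinase. SEC14L1 is a lipid-binding protein of the Sec14 family, marveld2a is a protein of tricellular junctions, arhgef12b is a guanine nucleotide exchange factor and map3k21 is a kinase of the MAP kinase cascade. cmbl encodes a hydrolase, and no role is given for si:ch211-79k12.1.

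Total counts per library ranged from 6266669 to 20118504. The library cave young heart replicate 1 correlated by rank with liver libraries at up to 0.964 and with heart libraries at no more than 0.547, and it was left out of the choice and of the heart fits. Few defining markers of the tissues could be matched by name: acta1b for skeletal muscle, myl7 for heart, elavl4 for brain and 5 markers of gut. myl7 lay between 3773 and 15752 CPM in the cavefish heart libraries kept and between 3869 and 12574 CPM in surface fish hearts, and at no more than 3.57 CPM in any library of another tissue. No marker listed for liver, blood cells, leukocytes or exocrine pancreas could be matched. Cave young liver replicate 4 held 1451 CPM of the gut marker anpepb, against a median of 21.7 CPM over cavefish livers, and cave aged muscle replicate 7 held 422 CPM.

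The lowest of the 5 differences ranged from 3.78 in the first member, ENSAMXG00000033138, to 0.32 in the last, SEC14L1. The next gene in the ranking, ENSAMXG00000008653, had 0.31, so that the last members and the first genes outside hardly differed. The median over the 80 was 0.56 on the log2(CPM + 1) scale. In 24 members the lowest difference was at least 1, in 9 at least 2, in 3 at least 3, and in 33 it was under 0.5. A difference above 0 in every tissue was found in 445 of the 4463 genes (9.97%). When the same rule was turned round to take 80 genes lower in cavefish, the first gene lay at -2.45 and the median at -0.36, and 13 genes reached a difference of at least 1 in every tissue, compared with 24 among the members.

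**Figure D1:**
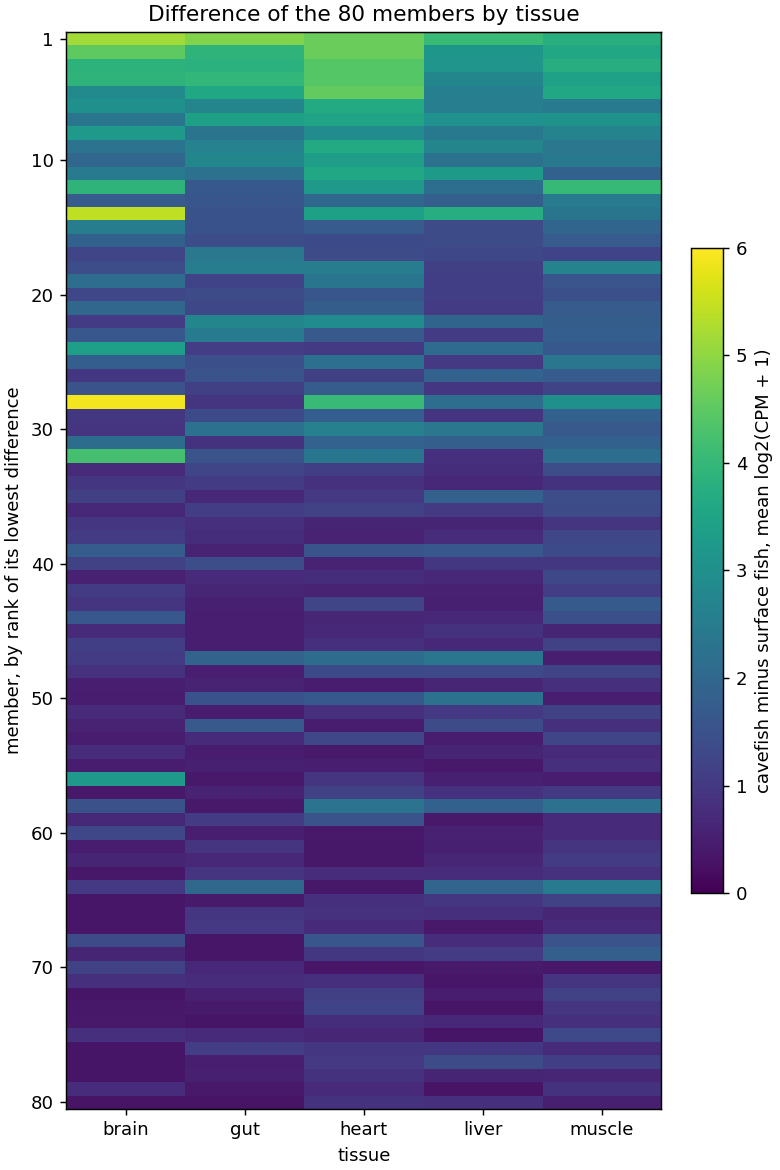
The difference between cavefish and surface fish, as mean log2(CPM + 1) of cavefish minus that of surface fish, for the 80 members (rows, ordered by their lowest difference, rank 1 at the top) in 5 tissues (columns). The first 9 members are at least 2 in every tissue, while several members lower down have a far larger difference in some tissues than in others, such as ENSAMXG00000016490 (rank 28), with 5.88 in brain, 4.06 in heart and 0.93 in gut.

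The members' median difference was 1.05 for brain, 1.02 for gut, 1.198 for heart, 0.99 for liver and 1.33 for muscle. The 4463 genes themselves were not centred on 0 in every tissue on this scale: their medians were 0.00 for brain, -0.18 for gut, -0.05 for heart, -0.19 for liver and 0.39 for muscle. Relative to these medians the members stood at 1.05 for brain, 1.21 for gut, 1.24 for heart, 1.18 for liver and 0.94 for muscle, so that muscle was the highest tissue before and the lowest after this adjustment. The order of the tissues also depended on the scale. In a DESeq2 fit the members' medians were 1.09 for brain, 1.23 for gut, 1.17 for heart, 1.40 for liver and 1.12 for muscle. Liver was highest and brain lowest there. In that fit 78 of the 80 members were above 0 in muscle, and SEC14L1 and ENSAMXG00000003247 were both at -0.03. On the log2(CPM + 1) scale, more than a 1-unit difference was found in 43 members for brain, 40 for gut, 47 for heart, 39 for liver and 55 for muscle. The tissue with the highest cavefish level was brain for 38 of the 80 members, heart for 21, gut for 11, liver for 6 and muscle for 4.

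In brain, every cavefish library lay above every surface fish library for 43 of the 80 members and for 170 of the 4463 genes (3.81%). The counts were 16 and 24 (0.538%) for gut and 23 and 36 (0.807%) for heart. They were 9 and 11 (0.246%) for liver and 24 and 65 (1.46%) for muscle. Among the members, the populations were apart in all 5 tissues for 6 and in 4 tissues for 7, and they overlapped in every tissue for 32. These counts over tissues were not made for the 4463 genes. The members were chosen on this difference, so all these counts are a description.

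The minimum of 5 CPM was set in cavefish alone, and 35 of the 80 members also reached it in surface fish in every tissue, 4 in none. The number reaching it in surface fish was 63 for brain, 68 for gut, 67 for heart, 44 for liver and 47 for muscle. A mean of at least 1 CPM in every surface fish tissue was seen for 71 members, and none had a mean under 0.5 CPM in all 5. At least 1 surface fish library had 0 counts in 20 members, and a cavefish library had 0 counts in 1 member, ENSAMXG00000017461. The difference was above 0 in every tissue for 74 members when only young fish were compared and for 65 when only aged fish were compared.

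ENSAMXG00000033138 had the highest rank. In brain it lay between 134 and 350 CPM in cavefish, with a median of 180 CPM, and between 0.756 and 23.0 CPM in surface fish, with a median of 1.85 CPM. In muscle the cavefish libraries lay between 8.94 and 33.6 CPM and the surface fish libraries between 0 and 1.71 CPM. The populations did not overlap in any tissue, and the differences ranged from 3.78 in muscle to 5.16 in brain. Within surface fish the levels fell into a high and a low set that was the same in brain and gut: in gut, replicates 5 and 6 of the aged fish had 27.1 and 20.9 CPM and replicate 7 had 0.422 CPM, while young replicate 3 had 25.4 CPM and young replicates 1, 2 and 4 had 1.04, 0.243 and 0.216 CPM.

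ENSAMXG00000036524 (rank 6) was low in every surface fish. In heart it had 15.7 to 21.9 CPM in cavefish (median 18.1 CPM) and 0 to 0.999 CPM in surface fish (median 0.622 CPM). In gut it had 10.0 to 20.6 CPM in cavefish and 0.485 to 5.80 CPM in surface fish. The populations did not overlap in any tissue, and the gene was not called with age in any tissue of either population. ENSAMXG00000029852 (rank 9) likewise did not overlap in any tissue, with 22.7 to 56.0 CPM in cavefish hearts and 0 to 10.6 CPM in surface fish hearts.

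ENSAMXG00000030507 (rank 14) had one of the largest single differences, 5.43 in brain. There the 7 cavefish libraries lay between 268 and 300 CPM, with a median of 281 CPM, and the 8 surface fish libraries between 1.23 and 24.5 CPM, with a median of 2.38 CPM. ENSAMXG00000016490 (rank 28) had the largest of all, 5.88 in brain, from 19.3 to 256 CPM in cavefish and 0 to 2.33 CPM in surface fish, but its gut libraries overlapped and differed by 0.93. ENSAMXG00000014616 (rank 32) differed by 4.24 in brain and by 0.83 in liver. These 3 members varied most over tissues, whereas ENSAMXG00000005187, ENSAMXG00000000568 and ENSAMXG00000032339 varied least, with differences from 0.48 to 0.81, from 0.44 to 0.77 and from 0.61 to 0.94.

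The named members lay mostly in the lower part of the ranking. NME2 was among the most abundant, with 1726 to 2425 CPM in cavefish hearts and 929 to 1484 CPM in surface fish hearts, which did not overlap. Its difference was 0.35 in gut and 0.81 in muscle. On the scale of a DESeq2 fit NME2 was lowest in muscle, at 0.27 ± 0.31 (SE), with 0.53 ± 0.15 in gut and 0.94 ± 0.19 in liver, its highest. The difference of arhgef12b was 0.72 in brain and 1.42 in muscle, and that of cmbl 0.36 in gut and 1.61 in heart. By the DESeq2 fit arhgef12b was at 0.66 in brain, 1.36 in gut and 1.03 in muscle. map3k21 and marveld2a had their largest differences in brain, 1.64 and 1.28, and si:ch211-79k12.1 in heart, 1.18. By the DESeq2 fit si:ch211-79k12.1 was at 1.13 in heart and 1.60 in liver.

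The same replicate numbers were used in all tissues, so that the members could be followed by number, although not every number had a library in every tissue. Over the 4463 genes, the deviations of 2 libraries from their group means had a median correlation of 0.20 when they shared population, age and number but not tissue (148 pairs, 117 of them above 0.1), and of -0.07 when their numbers differed (444 pairs). These pairs share libraries and genes, and the values are a description. For each gene, the share of the within-group variance of log2(CPM + 1) that went with the number was computed over the 13 numbers present in all 5 tissues, 6 of cavefish and 7 of surface fish. Its median was 39.6% over the members, 34.5% over the 80 genes lower in cavefish and 25.8% over the 4463 genes. The numbers took 9 of the 45 degrees of freedom within groups. More than 50% went with the number in 23 members (28.8%), in 2.78% of the 4463 genes and in 18.8% of the 80 genes lower in cavefish. Over the first 20 members the median was 54.6%.

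**Figure D2:**
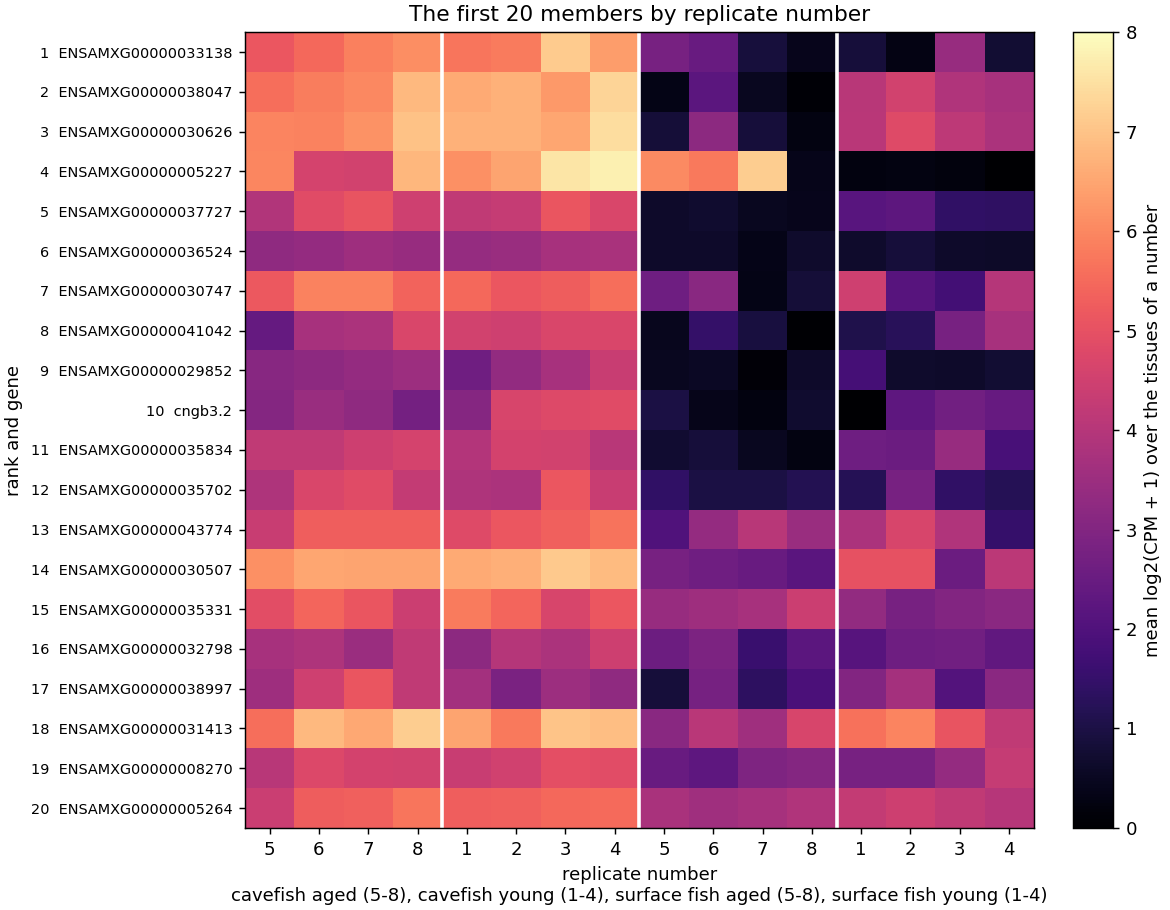
Mean log2(CPM + 1) over the tissues available for each replicate number (columns: aged cavefish 5 to 8, young cavefish 1 to 4, aged surface fish 5 to 8, young surface fish 1 to 4, separated by white lines) for the first 20 members (rows). Cavefish columns are brighter than surface fish columns in most rows, and several rows change within the surface fish, such as ENSAMXG00000005227, where numbers 5, 6 and 7 reach cavefish levels and the other 5 are dark.

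In surface fish alone the median share was 38.6% over the members, 66.4% over the first 20, 29.3% over the 4463 genes and 33.3% over the 80 genes lower in cavefish. In cavefish alone it was 30.2%, 33.6%, 18.0% and 24.5% in the same order. The highest shares belonged to ENSAMXG00000006516 (86.1%), ENSAMXG00000005227 (83.5%), ENSAMXG00000030747 (81.6%), ENSAMXG00000016490 (80.2%), ENSAMXG00000041042 (78.4%) and ENSAMXG00000012888 (73.0%). These members are described in turn, because a gene that follows the number in every tissue gives 1 observation per number rather than 5.

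ENSAMXG00000005227 (rank 4) was nearly absent from 5 of the 8 surface fish numbers. In gut it had 157, 51.9, 43.3 and 252 CPM in aged cavefish and 226, 185, 405 and 287 CPM in young cavefish. Aged surface fish guts 5, 6 and 7 had 196, 89.6 and 541 CPM and young surface fish guts 1 to 4 had 0, 0.162, 0.0817 and 0 CPM. Numbers 5, 6 and 7 of the surface fish thus had cavefish-like levels and the populations overlapped in every tissue.

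The same numbers were high in the other tissues. In brain, aged surface fish 5 to 8 had 91.4, 59.8, 138 and 0.683 CPM, and young surface fish 1 to 4 had 0.799, 0.924, 0.152 and 0 CPM. In liver they had 6.77, 10.7, 32.3 and 0 CPM in aged surface fish and 0 CPM in each of the 4 young ones. The mean of 12.4 CPM in aged surface fish livers was at least 249-fold higher than a floor of 3 counts summed over the young group. Within cavefish, numbers 6 and 7 were the lowest of the aged fish in every tissue, at 36.8 and 30.3 CPM in brain compared with 179 CPM in number 8.

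ENSAMXG00000016490 was split within cavefish instead. In brain it had 47.2, 73.5 and 242 CPM in aged cavefish 6, 7 and 8 and 19.3, 235, 256 and 252 CPM in young cavefish 1 to 4. In liver it had 0.329, 0.565, 0.100 and 13.6 CPM in aged cavefish 5 to 8 and 0.236, 28.7, 50.2 and 61.7 CPM in young cavefish 1 to 4. Numbers 2, 3, 4 and 8 were high and 1, 5, 6 and 7 low in each tissue in which they were sampled, and in liver the low cavefish lay within the surface fish range of 0 to 0.911 CPM.

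ENSAMXG00000030747 (rank 7) varied within surface fish. In heart it had 102, 81.7, 68.6 and 61.1 CPM in aged cavefish and 46.8, 68.0 and 67.8 CPM in young cavefish, against 10.5, 8.94, 0 and 0.151 CPM in aged surface fish and 39.6, 6.001, 1.59 and 21.7 CPM in young surface fish. Numbers 1 and 4 were the highest of the young surface fish in every tissue and numbers 7 and 8 the lowest of the aged ones wherever sampled. ENSAMXG00000041042 (rank 8) was highest in numbers 3 and 4 of the young surface fish, with 10.2 and 34.3 CPM in heart, compared with 0.824 and 1.16 CPM in numbers 1 and 2.

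ENSAMXG00000006516 (rank 29) had 0 CPM in young surface fish 3 in brain, gut, heart and liver and 0.0711 CPM in muscle. In gut it had 13.8, 13.2, 13.0 and 11.5 CPM in aged cavefish, 10.2, 10.9, 15.2 and 14.2 CPM in young cavefish, 13.0, 20.3 and 12.3 CPM in aged surface fish and 1.89, 2.75, 0 and 1.95 CPM in young surface fish. In gut the aged surface fish lay at or above the cavefish levels and the young surface fish below them. ENSAMXG00000012888 (rank 25) had 35.6, 7.59, 26.0 and 9.05 CPM in aged surface fish hearts and 0.206, 0.179, 16.2 and 0.222 CPM in young ones, with number 3 the only young surface fish above 1 CPM, while cavefish hearts lay at 23.3 to 38.1 CPM.

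cngb3.2 (rank 10) was absent or nearly so from young surface fish 1, with 0.0666 CPM in brain and 0 CPM in gut, heart, liver and muscle. In liver it had 2.06, 2.58, 2.40 and 0.858 CPM in aged cavefish and 1.18, 27.8, 61.2 and 40.2 CPM in young cavefish, against 0.141, 0.0607, 0.0782 and 0 CPM in aged surface fish and 0, 1.33, 6.55 and 1.02 CPM in young surface fish. Its difference was largest in heart, 3.37, and its populations overlapped in every tissue.

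**Figure D3:**
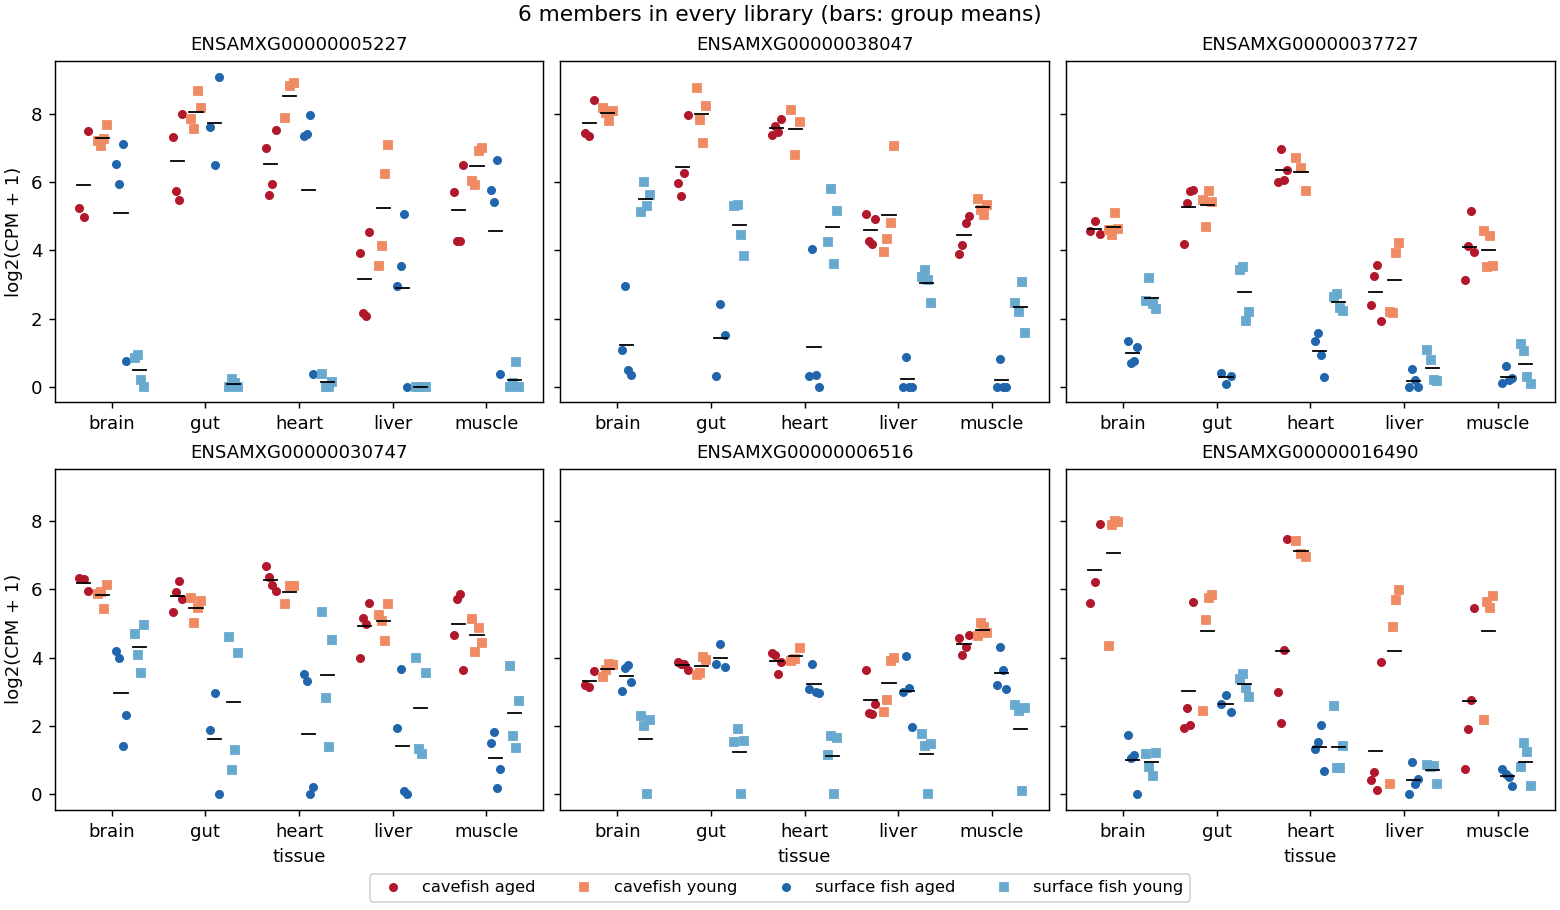
log2(CPM + 1) of 6 members in every library by tissue, with aged cavefish, young cavefish, aged surface fish and young surface fish from left to right and bars at the group means; cave young heart replicate 1 is left out. Surface fish split into a high and a low set for ENSAMXG00000005227 and ENSAMXG00000030747, cavefish split for ENSAMXG00000016490, and aged surface fish lie below young ones for ENSAMXG00000038047 outside heart and for ENSAMXG00000037727 in brain, gut and heart.

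ENSAMXG00000038047 and ENSAMXG00000030626 (ranks 2 and 3) varied together. Their deviations from the group means had a correlation of 0.92 over 77 libraries, some of which share a tissue or a replicate number, and the summed cavefish counts of the first were 0.94 times those of the second. How reads that map to several places were counted is not given in the sources used here, so whether these genes share reads was not tested. For both, the populations did not overlap in any tissue, and both were low in aged surface fish.

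Age was tested within each population and tissue. In surface fish, DESeq2 called 59 age differences in 33 of the 80 members, 12 of them in 2 tissues and 5 in at least 3, and no member changed in opposite directions. The members called were 15 of 80 for brain (18.8%, where 6.14% of all genes tested were called), 18 of 78 for gut (23.1% and 9.84%), 4 of 75 for heart (5.33% and 2.84%), 13 of 78 for liver (16.7% and 5.19%) and 9 of 76 for muscle (11.8% and 4.48%). Among the 4463 genes that met the cavefish minimum the shares were 6.05% for brain, 15.3% for gut, 1.67% for heart, 5.53% for liver and 5.29% for muscle. The 80 genes lower in cavefish had shares of 7.59%, 32.5%, 6.41%, 16.2% and 13.9% in the same order. Outside brain, a share above that of all genes was therefore not particular to the members. In brain the genes lower in cavefish, at 7.59%, lay nearer to the 6.14% of all genes than to the 18.8% of the members.

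Of the 59 calls, 38 were falls and 21 rises. Shares in brackets in this paragraph are those of all genes tested, not of the members. The members that fell with age in surface fish were 11 for brain (3.2% of all genes tested), 11 for gut (3.31%), 2 for heart (1.17%), 8 for liver (2.08%) and 6 for muscle (2.26%). edgeR gave an unadjusted p under 0.05 for 52 of the 59 calls, and its filter on low counts left the other 7 untested. With its adjusted p it called 8 members for brain (2.18% of all genes), 3 for gut (2.03%), 0 for heart (0.161%), 2 for liver (0.726%) and 0 for muscle (0.0432%). In heart its unadjusted p was under 0.05 for 12 of 78 members and 1480 of 12426 genes tested. In muscle it was so for 13 of 70 members and 1664 of 11579 genes. When each library was left out in turn, 33 of the 59 calls were kept in every fit. The count in heart was 2 without aged replicate 7 (229 over all genes) or young replicate 1 (433) and 1 without young replicate 2 (212). It was 10 without young replicate 4 (909), against 4 (419) with every library. The count in muscle was 5 without aged replicate 5 (342) or 7 (391), against 9 (600) with every library.

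**Figure D4:**
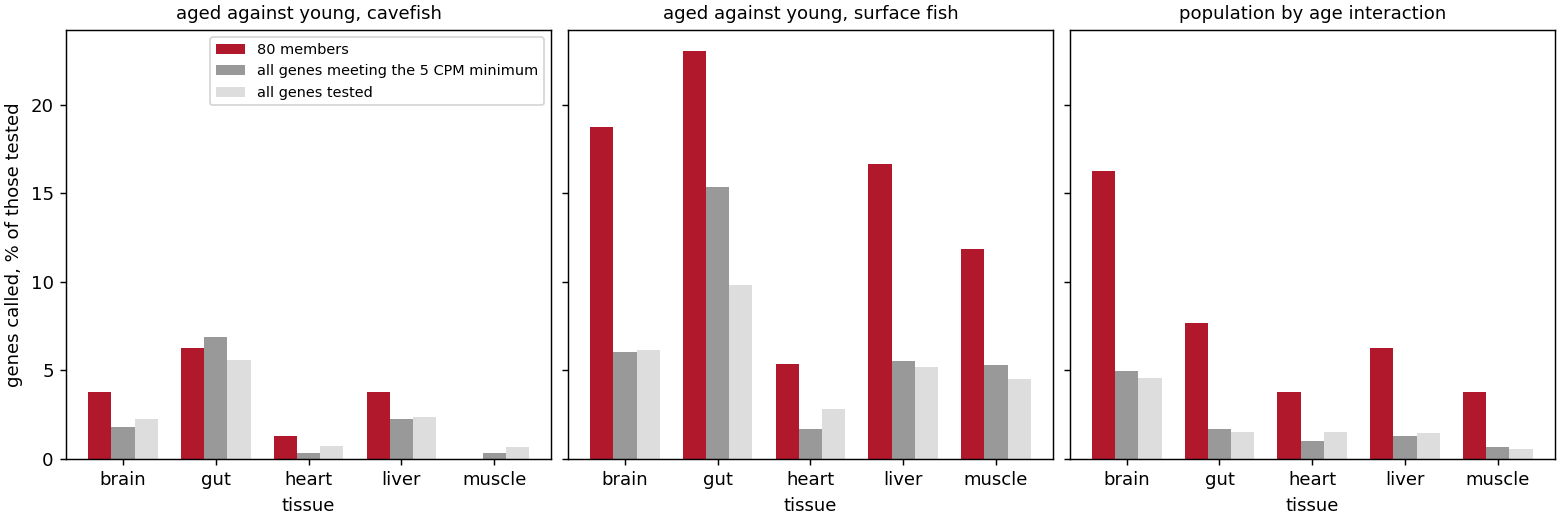
Share of genes called by DESeq2 at an adjusted p under 0.05 in each tissue, for aged against young cavefish, aged against young surface fish and the difference between these age changes, among the 80 members, the genes meeting the 5 CPM minimum in cavefish and all genes tested. In surface fish the members' share was 18.8% in brain, where 6.14% of all genes tested were called, and 23.1% in gut, where 9.84% were; in cavefish muscle no member was called.

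ENSAMXG00000038047 fell with age in surface fish in brain, gut, liver and muscle. In brain it had 1.11, 6.75, 0.412 and 0.273 CPM in aged surface fish and 33.96, 63.1, 38.1 and 48.4 CPM in young surface fish, a log2 fold change of -4.42 ± 0.94 (SE; adjusted p = 0.000254). In liver, 3 of the 4 aged surface fish had 0 CPM and replicate 6 had 0.850 CPM, while young surface fish had 8.31, 9.79, 7.69 and 4.44 CPM (-5.52 ± 0.91, adjusted p = 4.87e-07). Aged and young surface fish did not overlap in either tissue, and replicate 6 was the highest of the aged fish in brain, gut, heart, liver and muscle. ENSAMXG00000030626 fell in brain (-2.97 ± 0.70, adjusted p = 0.00144), gut and liver.

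ENSAMXG00000037727 fell in brain, gut and heart of surface fish. In gut it had 0.319, 0.0692 and 0.253 CPM in aged surface fish and 9.79, 10.3, 2.78 and 3.57 CPM in young surface fish (-4.81 ± 0.77, adjusted p = 9.89e-08). ENSAMXG00000035834 fell in brain, gut, heart and liver, and in gut it had 0.319, 0.969 and 0.253 CPM in aged surface fish and 27.3, 17.2, 56.1 and 12.1 CPM in young surface fish (-5.72 ± 0.73, adjusted p = 4.81e-12). Neither gene was called with age in cavefish, where the guts had 34.8, 35.0, 44.4 and 53.3 CPM of ENSAMXG00000035834 in aged fish and 26.5, 28.7, 29.3 and 34.5 CPM in young fish.

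ENSAMXG00000030507 and ENSAMXG00000030500 were low in aged surface fish livers. The first had 0.493, 0.789, 0.235 and 0 CPM in aged and 40.1, 28.2, 0.214 and 13.2 CPM in young surface fish livers (-6.04 ± 1.06, adjusted p = 3.19e-06). Young replicate 3 lay within the aged range, as it did in brain, where it had 2.29 CPM and the other young surface fish 23.1 to 24.5 CPM. The second had 0.211, 0.364, 0.0782 and 0.0910 CPM in aged and 8.31, 5.19, 4.91 and 1.56 CPM in young surface fish livers (-4.77 ± 0.73, adjusted p = 3.21e-08), with no overlap.

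ENSAMXG00000031413 fell in surface fish muscle, with 6.62, 5.38, 10.8 and 15.4 CPM in aged and 61.1, 49.2, 75.5 and 29.8 CPM in young fish (-2.43 ± 0.43, adjusted p = 9.95e-06). SEC14L1 fell in surface fish brain by a smaller amount, with 75.6, 75.3, 66.3 and 66.4 CPM in aged and 105, 99.9, 109 and 111 CPM in young fish (-0.54 ± 0.09, adjusted p = 1.43e-07). The ages did not overlap for either gene. ENSAMXG00000038997 fell in gut (-4.36 ± 0.95, adjusted p = 0.000246) and ENSAMXG00000008169 in liver (-1.81 ± 0.41, adjusted p = 0.000657).

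Among the rises, ENSAMXG00000009429 had 7.67, 3.68, 8.94 and 6.01 CPM in aged surface fish brains and 0.333, 1.01, 0.305 and 0.592 CPM in young ones, a log2 fold change of 3.57 ± 0.50 (adjusted p = 1.01e-09). The cavefish brains lay at 7.72 to 13.6 CPM, so that the population difference of this gene was larger in young fish. ENSAMXG00000006516 rose in gut (3.39 ± 0.79, adjusted p = 0.000736) and heart, ENSAMXG00000012888 in gut and liver, and ENSAMXG00000000568 in gut and liver. ENSAMXG00000005227 was called in all 5 tissues (adjusted p from 8.55e-25 in gut to 0.012 in liver). All 5 calls rest on the same 3 replicate numbers, 5, 6 and 7. Number 8, which is also aged, had levels like those of the young fish wherever it was sampled. It had no library in gut, the tissue with the lowest adjusted p. The fitted fold changes of ENSAMXG00000005227 depend on young levels near 0 and are not given.

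In cavefish, 12 calls were made in 11 members. The members called were 3 of 80 for brain (3.75%, where 2.27% of all genes were called), 5 of 80 for gut (6.25% and 5.56%), 1 of 79 for heart (1.27% and 0.715%), 3 of 80 for liver (3.75% and 2.35%) and 0 of 80 for muscle (0.662%). These shares were close to the background. In muscle the unadjusted p of DESeq2 was under 0.05 for 10 members and for 1532 of all genes. That of edgeR was under 0.05 for 9 of 80 members and 1086 of 12015 genes tested, and edgeR called 0 of 80. edgeR called no member for brain (0.296% of all genes), gut (0%), heart (0%), liver (0%) or muscle (0.0333%), while its unadjusted p was under 0.05 for each of the 12 calls. Over all 80 members that p was under 0.05 for 14 in brain (2114 of 14191 genes tested) and 11 in gut (2141 of 11825). It was so for 6 in heart (885 of 12538) and 7 in liver samples (1048 of 9338).

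Single libraries moved the cavefish counts. Counts over all genes in the same fits are given in brackets. In brain 8 members were called without aged replicate 8 (259) and 6 without young replicate 2 (393), against 3 (299) with every library. Only 1 was called without aged replicate 7 (96), young replicate 1 (203) or young replicate 3 (161). In gut the count was 9 without aged replicate 8 (1497), against 5 (724) with every library. It was 3 without aged replicate 6 (319) or young replicate 2 (436). It was 2 without aged replicate 7 (457) or young replicate 3 (285), and 1 without young replicate 4 (452). In heart it was 9 without young replicate 2 (636), against 1 (102) with every library. It was 3 without aged replicate 8 (95) and 2 without aged replicate 5 (116). Leaving out aged replicate 8 gave 5 calls in liver (212), against 3 (219) with every library. In muscle it gave 2 (137), against 0 (97). The 5 calls kept in every fit were ENSAMXG00000038997 in brain, ENSAMXG00000000568 in gut, and, in liver, cngb3.2 and ENSAMXG00000040690, with cngb3.2 in heart as well.

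ENSAMXG00000038997 had 14.8, 24.96 and 9.12 CPM in aged cavefish brains and 6.66, 2.59, 2.84 and 4.79 CPM in young ones (1.97 ± 0.39, adjusted p = 0.00013), without overlap. ENSAMXG00000000568 had 40.3, 54.6, 44.5 and 38.98 CPM in aged cavefish guts and 25.8, 21.1, 20.7 and 18.3 CPM in young ones (1.11 ± 0.24, adjusted p = 0.000729), and its surface fish guts rose as well, with 45.6, 52.2 and 18.0 CPM in aged and 13.9, 25.8, 11.9 and 13.0 CPM in young fish (1.35 ± 0.40, adjusted p = 0.012). In surface fish the ages overlapped, and that call was kept in 3 of 7 fits with a library left out.

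cngb3.2 fell with age in cavefish heart and liver and also in surface fish gut and liver. By DESeq2 the surface fish changes were -4.84 ± 1.29 in gut (adjusted p = 0.00407) and -4.79 ± 1.33 in liver (adjusted p = 0.0102). With a library left out they were kept in 2 of 7 fits for gut and 6 of 8 for liver. In heart it had 20.8, 15.7, 13.2 and 14.1 CPM in aged and 65.7, 51.5 and 33.3 CPM in young cavefish (-1.59 ± 0.32, adjusted p = 0.000684), without overlap. With cave young heart replicate 1 put back no member was called in heart, where 0.182% of all genes tested were called. In cavefish liver the change of cngb3.2 was -3.37 ± 0.76 (adjusted p = 0.00193), and young replicate 1, with 1.18 CPM, lay within the aged range of 0.858 to 2.58 CPM. ENSAMXG00000040690 had 3.13, 1.69, 1.1003 and 1.72 CPM in aged and 11.3, 7.33, 24.0 and 21.8 CPM in young cavefish livers (-2.53 ± 0.38, adjusted p = 7.0e-08). All 3 cavefish liver calls, which include arhgef12b (1.11 ± 0.31, adjusted p = 0.0225), were lost when cave liver replicate 4 was counted as aged. That fit called 1.27% of all genes tested. The labels give that library as young and a table of the study as aged.

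The difference between the age changes of the populations was tested as an interaction, the change in cavefish minus the change in surface fish. DESeq2 called 30 such differences in 16 members. The members called were 13 of 80 for brain (16.3%, where 4.58% of all genes were called), 6 of 78 for gut (7.69% and 1.5%), 3 of 79 for heart (3.80% and 1.54%), 5 of 80 for liver (6.25% and 1.46%) and 3 of 80 for muscle (3.75% and 0.556%). The 80 genes lower in cavefish had shares of 7.59%, 7.59%, 3.80%, 5.26% and 2.50%. edgeR called 12 members for brain (1.57% of all genes), 3 for gut (0.105%), 1 for heart (0.0512%), 1 for liver (0.0651%) and 0 for muscle (0%). In muscle its unadjusted p was under 0.05 for 14 of 80 members and 1111 of 12898 genes tested.

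Of the 30 calls, 22 were kept in every fit with a library left out. Counts over all genes are again in brackets. The count in gut was 14 without cave aged replicate 5 (419) and 11 without surface aged replicate 6 (206), against 6 (218) with every library. In heart it was 6 without surface young replicate 4 (540) and 5 without cave young replicate 2 (413) or surface aged replicate 6 (154). It was 1 there without cave aged replicate 6 (190) or cave young replicate 4 (284), against 3 (216) with every library. In liver it was 8 without surface aged replicate 8 (413), against 5 (174) with every library. In muscle it was 6 without surface aged replicate 8 (414), against 3 (82) with every library. It was 5 there without cave young replicate 3 (71) or surface young replicate 2 (140).

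In brain the interaction was negative for ENSAMXG00000009429 (-3.73 ± 0.52, adjusted p = 2.24e-09), which rose with age in surface fish, and positive for SEC14L1 (0.79 ± 0.15, adjusted p = 4.08e-05). SEC14L1 had 108.1, 124 and 126 CPM in aged cavefish brains and 105, 116, 85.04 and 99.9 CPM in young ones, and these young cavefish overlapped with the young surface fish while the aged fish of the populations did not overlap. ENSAMXG00000035834 had an interaction of 3.07 ± 0.53 in brain (adjusted p = 4.27e-06) and 6.25 ± 0.74 in gut (adjusted p = 1.97e-13), and ENSAMXG00000037727 of 2.31 ± 0.43 in brain (adjusted p = 3.67e-05), 4.86 ± 0.76 in gut (adjusted p = 2.62e-07) and 2.39 ± 0.63 in heart (adjusted p = 0.0174).

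ENSAMXG00000038047 was called in brain (4.22 ± 1.01, adjusted p = 0.00296), liver (5.22 ± 0.98, adjusted p = 9.25e-05) and muscle (4.15 ± 0.80, adjusted p = 0.000435), and ENSAMXG00000030500 in liver (4.47 ± 0.72, adjusted p = 1.05e-06) and muscle (3.45 ± 0.86, adjusted p = 0.0241). ENSAMXG00000038997 was called in brain (3.49 ± 0.71, adjusted p = 0.000207) and gut (5.22 ± 1.03, adjusted p = 0.000261), where its mean was higher in aged than in young cavefish and lower in aged than in young surface fish. In these members the gap between the populations was wider in aged than in young fish. ENSAMXG00000005227 was called in all 5 tissues with a negative interaction, and its adjusted p ranged from 1.94e-22 in gut to 0.000104 in brain.

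dbpb was the only member among the listed genes that could be matched by symbol. The matched genes were 3 of 66 listed for DNA repair, 5 of 49 for the circadian clock, 15 of 50 for antioxidant defence, 8 of 32 for chaperones, 0 of 25 for antigen presentation and 0 of 26 for innate immune families, so that members of these lists may be among those without a symbol. It is an output gene of the circadian clock in fish. In brain it had 319, 354 and 293 CPM in aged cavefish and 286, 348, 181 and 208 CPM in young cavefish, against 81.7, 96.8, 60.5 and 49.97 CPM in aged surface fish and 201, 128, 33.4 and 26.9 CPM in young surface fish. Only young surface fish 1 lay within the cavefish range. dbpb was not called with age or for the interaction in any tissue.

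The other 4 matched clock genes were per2, cry1a, nfil3-5 and bhlhe40. In brain, 2 of these 4 were lower in cavefish by DESeq2, with log2 fold changes of -0.40 for cry1a and -0.54 for bhlhe40, and none was higher. In the other tissues none of those tested was called between the populations. Of all genes tested, this contrast called 26.3% for brain, 13.2% for gut, 11.5% for heart, 8.1% for liver and 6.8% for muscle. With age in surface fish, per2 rose and nfil3-5 fell in gut and bhlhe40 rose in muscle, and none was called in cavefish or for the interaction.

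ENSAMXG00000017461 and ENSAMXG00000036269 were the most abundant members, and they varied together. Their deviations from the group means had a correlation of 0.95 over 77 libraries. In liver ENSAMXG00000017461 had 41407, 33591, 44345 and 52601 CPM in aged cavefish and 16462, 48015, 7.40 and 6.28 CPM in young cavefish, against 54739, 0.121, 8584 and 25544 CPM in aged surface fish and 6.30, 20112, 4.84 and 27857 CPM in young surface fish. Both genes were above 1000 CPM in 6 of 8 cavefish and 5 of 8 surface fish livers and under 20 CPM in the other 2 and 3. Their differences in liver were 2.36 and 2.24, with libraries under 20 CPM in both populations. On the scale of a DESeq2 fit they were 0.92 ± 1.52 and 1.69 ± 1.35 (SE) in liver and 0.43 ± 1.61 and 0.17 ± 0.64 in muscle. In muscle ENSAMXG00000017461 had 0, 8, 55 and 15 counts in aged and 1821, 1113, 0 and 0 in young cavefish. Surface fish muscle had 1238, 21, 17 and 18 counts in aged and 27, 18, 7 and 14 in young fish.

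**Figure D5:**
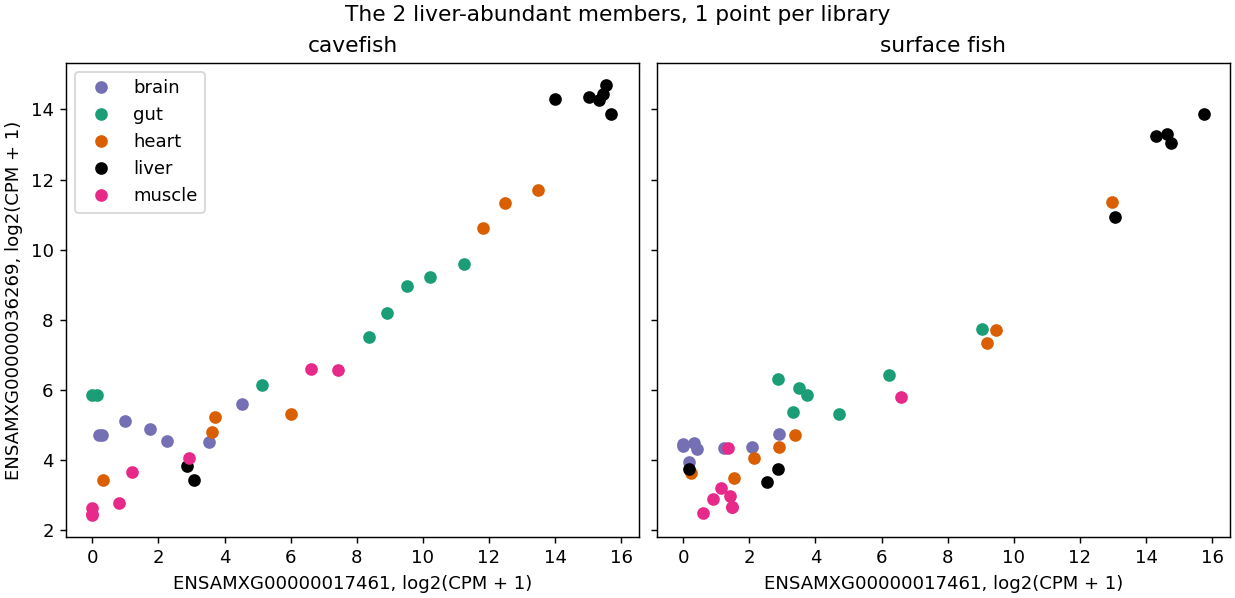
log2(CPM + 1) of ENSAMXG00000036269 against ENSAMXG00000017461 in cavefish (left) and surface fish (right), 1 point per library, coloured by tissue. In liver the points form a high set (6 of 8 cavefish and 5 of 8 surface fish libraries) and a low set, and libraries of gut and heart spread between them.

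Liver was also the tissue in which single libraries weighed most on the members. The highest cavefish liver value was found in young replicate 3 or 4 for 65 of the 80 members and for 75.6% of the 4463 genes. Among the young cavefish livers these had the most anpepb, tm4sf5, fabp2 and cdh17. For vil1, young replicate 3 had 0.285 CPM, less than the 0.367 CPM of young replicate 2. Aged replicate 7 exceeded young replicate 3 for every gut marker except tm4sf5, with 191 CPM of anpepb against 114 CPM. Young replicates 3 and 4 were also the 2 cavefish livers under 20 CPM for ENSAMXG00000017461. Without both libraries the members' median difference in liver was 0.71, compared with 0.99 with them, and it was above 0 for 76 of the 80. The part of gut RNA in these values was not tested.

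Cave young heart replicate 1, which the rule did not use, is described here beside the other libraries. Their mean log2(CPM + 1) in this library was 3.73, compared with 5.43 to 5.82 in the other cavefish hearts, 3.82 to 5.11 in cavefish livers, 3.52 to 4.32 in surface fish hearts and 2.56 to 3.12 in surface fish livers. In this library 61 members lay above the mean of surface fish livers and 26 above the highest of them, while 11 lay above the highest surface fish heart. The same counts over all genes were not computed, so no excess of the members is read from these. A single library gives no test.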

How the data were processed

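The deposited values were whole-number counts of reads per Ensembl gene, 1 table per tissue. The authors mapped reads with STAR to a surface fish reference assembly and counted them with the Ensembl annotation, and strand and multiply mapped reads are not given in the sources used here. All columns of per-sample values were used (0 left out). CPM was the count scaled to a common library total. Symbols came from tables of the study that pair identifiers with names (2079 genes). Sequences and positions were not used here.

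Age within each population and the interaction were tested with the Wald test of DESeq2 (1.42.0, R 4.3.3), the tool of the study, whose methods describe no interaction term, on all genes of a tissue, with Benjamini-Hochberg adjustment and a threshold of 0.05. Members without an adjusted p are not in the denominators. The quasi-likelihood test of edgeR (4.0.16, limma 3.58.1) was the alternative. Others were TMM factors, a filter of 10 counts in 3 libraries, a replicate block, each library left out, cave liver replicate 4 as aged and the heart library put back. Cave aged hearts 5 to 8 carry the word young in their description and aged as their attribute, and were grouped as aged. The fits were tested on counts simulated from brain levels, with the same dispersion for every gene. The changed genes were drawn only from those with higher mean counts. For age, DESeq2 recovered 76% of changes of 1 log2 unit and 100% of changes of 2, with 25 false calls among 201. For the interaction it recovered 38% and 96%, with 21 false calls among 155. edgeR recovered 71% and 100% for age (12 false among 183 calls). For the interaction edgeR recovered 25% and 95% (9 false among 129). In each of these fits the share of false calls was above the threshold of 0.05. Other tissues and the spread of the members themselves were not simulated. The recovery rates therefore do not carry over to members at few counts. Other steps used Python 3.11.15, numpy 2.4.6, pandas 2.3.3, scipy 1.17.1 and matplotlib 3.10.9.

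The members and lists were chosen with earlier results of these data known. Genes were named by rank (the first 15 and those at the threshold), abundance (5), age calls of both tools (up to 12), interaction calls (up to 8), gene lists, the range of the difference over tissues (3 largest, 3 smallest) and the share going with the number (6). Members with a symbol and the other members with age calls were named after their values were seen. Of the members with a symbol, 1 is not reported here. Replicates were separate libraries, and no label says that libraries of different tissues are of different fish, so that calls of 1 gene in several tissues may rest on the same fish.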

Additional observations from a re-analysis of the deposited data

Results flagged for a closer look

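The mean of the 80 members and the values of the first-ranked members were examined in each group for a library far from the rest. Of these 101 examinations, 10 flagged one. The examinations share libraries, and ENSAMXG00000038047 and ENSAMXG00000030626 vary together, so the number is not set against a rate given by chance. The mean log2(CPM + 1) of the 80 members was 2.61 in surface young liver replicate 4, lower than in the other young surface fish livers. ENSAMXG00000033138 had 25.4 CPM in surface young gut replicate 3. Surface aged replicate 6 stood above the other aged surface fish with 15.3 CPM in heart, 0.850 CPM in liver and 0.769 CPM in muscle for ENSAMXG00000038047, and with 31.0, 2.55 and 3.67 CPM in the same tissues for ENSAMXG00000030626. ENSAMXG00000005227 had 0.302 CPM in surface aged heart replicate 8 and 0.640 CPM in surface young muscle replicate 3.

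The age change differed between cavefish and surface fish, by the interaction term of DESeq2, for 8 genes named above. Several tissues were called for ENSAMXG00000005227 (adjusted p = 0.000104 for brain, 1.94e-22 for gut, 1.52e-09 for heart, 4.62e-07 for liver and 2.87e-05 for muscle), for ENSAMXG00000038047 (0.00296 for brain, 9.25e-05 for liver and 0.000435 for muscle) and for ENSAMXG00000037727 (3.67e-05 for brain, 2.62e-07 for gut and 0.0174 for heart). ENSAMXG00000035834 had adjusted p = 4.27e-06 for brain and 1.97e-13 for gut, ENSAMXG00000038997 had 0.000207 for brain and 0.000261 for gut, and ENSAMXG00000030500 had 1.05e-06 for liver and 0.0241 for muscle. In brain, ENSAMXG00000009429 had adjusted p = 2.24e-09 and SEC14L1 4.08e-05. In cave young heart replicate 1, which was left out of the comparisons, 26 members lay above the highest surface fish liver library. The share of all genes above that library was not computed.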

How the results depend on the processing

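Of the 80 members, 36 remained with a minimum of 1 CPM, 41 with 10 CPM, 36 with no minimum, 48 with young libraries only and 45 with aged libraries only, while 60 to 79 remained with another scaling, a pseudocount of 0.5 or the left-out heart library, and 69 to 80 with 1 library left out. With edgeR the members called with age were 0 in cavefish brain, gut, heart and liver, and in surface fish 8 for brain, 3 for gut, 0 for heart, 2 for liver and 0 for muscle, and for the interaction 3 for gut, 1 for heart, 1 for liver and 0 for muscle. With the heart library put back, 0 members were called in cavefish heart (0.182% of all genes tested, against 0.715% without it). With cave liver replicate 4 as aged, 0 were called in cavefish liver (1.27% of all genes tested, against 2.35% with it as young). TMM factors and the filter moved no count by over 1.5 times. With 1 library left out, the cavefish calls were 1 to 8 for brain, 1 to 9 for gut, 1 to 9 for heart, 2 to 5 for liver and 0 to 2 for muscle, the surface fish calls 10 to 16, 13 to 20, 1 to 10, 9 to 14 and 5 to 9, and the interaction calls 12 to 18, 5 to 14, 1 to 6, 4 to 8 and 2 to 6. The members' median interaction in heart was 0.17, and -0.12 with the heart library put back. The median over the genes that met the cavefish minimum moved the same way, from 0.097 to -0.055. With DESeq2 size factors 79 of the 80 members were above 0 in every tissue. The cause of these moves was not tested.

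Cavefish and surface fish share replicate numbers. Between cavefish and surface fish libraries of the same number and tissue, the correlation of deviations was above 0.1 in 15 of 37 pairs (-0.38 to 0.83, median 0.07). Without a value for different numbers beside it, this does not show whether the numbers pair the populations. With a replicate block the interaction calls among the members were 16 for brain (4.22% of all genes tested) and 6 for gut (0.938%). They were 8 for heart (1.55%), 7 for liver (3.22%) and 7 for muscle (1.80%). The comparison relative to the median of all genes and the liver values without young replicates 3 and 4 were added after seeing the data. Groups of 3 or 4 libraries limit what any test of age could detect, and a gene at a few counts gives an imprecise fold change.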
